A study of Mus musculus with 6 samples.

Results

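The genes described here encode MHC class I molecules and the proteins that fill them with peptides. They were taken from the count table by symbol: every H2 symbol of the K, D1, Q, T and numbered M groups, and 14 partner genes (B2m, Tap1, Tap2, Tapbp, Tapbpl, Psmb8, Psmb9, Psmb10, Psme1, Psme2, Erap1, Nlrc5, Calr and Pdia3). This gave 46 of the 55011 symbols, 32 of them H2 symbols. One of these, H2-Ke6, encodes a hydroxysteroid dehydrogenase and was caught by its name alone, with at most 2 counts in a library. Of the 46, 36 had a count in some library and 27 passed the filter on low counts and were tested, namely 13 H2 symbols and all 14 partner genes.

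Polyadenylated RNA was measured in cultured stromal cells from mouse visceral fat (epididymal in the design text) that were negative for an EGFP reporter of Il33 (Il33-EGFP-). The irisin group (n = 3) had been kept for 3 days with 10 nM irisin, a hormone cleaved from a muscle membrane protein, together with the chaperone HSP90α, as the treatment label is read here. The PBS group (n = 3) had been kept with phosphate-buffered saline, and the labels do not say whether it also held HSP90α. The labels name no strain, age or sex, nor do they tie a replicate to its own culture or mouse, and the p-values here speak only of the variation among 6 libraries, part or all of which may be technical.

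MHC class I molecules carry short peptides from inside the cell to its surface, where CD8 T cells and natural killer cells read them. A heavy chain, in mice the classical H2-K and H2-D or one of many nonclassical Q, T and M chains, pairs with the light chain β2-microglobulin. Peptides are cut by the proteasome, whose catalytic subunits can be replaced by the immunoproteasome subunits, carried into the endoplasmic reticulum by the TAP transporter, trimmed by Erap1 and loaded with the help of tapasin, calreticulin and Pdia3. Interferons and NF-κB are known to raise the transcription of many of these genes, and Nlrc5 is the transactivator of class I promoters.

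Promoter sequence is shown for 5 members that carry the account below, the classical chains H2-K1 and H2-D1, the light chain B2m, the Qa chain H2-Q10 and the transporter subunit Tap1. Each run is the 250 bases before the RefSeq start of the gene (GRCm38.p6), 5′ to 3′ on the gene's strand. Capitals mark matches, on either strand, to the NF-κB consensus, to the interferon regulatory factor core AANNGAAA, to the X2 box core TGACGC and to the CCAAT box. In H2-K1 and H2-D1 the NF-κB run is made of 2 overlapping matches.
H2-K1 (chr17:34000348-34000597, minus strand): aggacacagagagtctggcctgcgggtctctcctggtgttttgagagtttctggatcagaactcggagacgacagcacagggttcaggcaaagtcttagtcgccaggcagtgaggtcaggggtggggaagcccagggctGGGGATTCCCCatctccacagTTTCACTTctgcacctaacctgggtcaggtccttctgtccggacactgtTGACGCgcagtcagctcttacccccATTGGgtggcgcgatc
H2-D1 (chr17:35262844-35263093, plus strand): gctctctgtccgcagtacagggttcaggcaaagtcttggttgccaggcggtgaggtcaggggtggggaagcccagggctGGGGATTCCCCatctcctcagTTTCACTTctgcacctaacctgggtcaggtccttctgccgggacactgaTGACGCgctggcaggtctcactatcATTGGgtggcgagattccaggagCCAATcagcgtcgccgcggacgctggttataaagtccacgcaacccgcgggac
B2m (chr2:122147437-122147686, plus strand): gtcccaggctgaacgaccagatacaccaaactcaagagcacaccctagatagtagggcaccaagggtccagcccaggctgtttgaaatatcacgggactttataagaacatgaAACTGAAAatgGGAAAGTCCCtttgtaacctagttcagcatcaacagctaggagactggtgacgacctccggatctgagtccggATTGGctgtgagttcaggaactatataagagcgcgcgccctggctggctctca
H2-Q10 (chr17:35469839-35470088, plus strand): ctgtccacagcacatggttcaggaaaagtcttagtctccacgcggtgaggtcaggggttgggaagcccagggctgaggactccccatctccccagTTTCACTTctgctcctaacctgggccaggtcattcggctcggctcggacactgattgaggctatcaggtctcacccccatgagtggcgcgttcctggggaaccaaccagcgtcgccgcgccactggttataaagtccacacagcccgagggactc
Tap1 (chr17:34187306-34187555, plus strand): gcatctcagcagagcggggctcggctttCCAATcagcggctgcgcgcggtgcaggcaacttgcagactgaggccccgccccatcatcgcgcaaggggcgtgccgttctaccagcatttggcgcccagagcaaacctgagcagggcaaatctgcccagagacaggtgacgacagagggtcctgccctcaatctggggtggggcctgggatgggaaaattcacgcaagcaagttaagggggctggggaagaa

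In H2-K1 and H2-D1 the same order of letters was found, an NF-κB match (from base -111 and from base -171, counted back from the start), an interferon factor core (-90 and -150), and an X2 core (-41 and -101), followed by 1 CCAAT box in H2-K1 and 2 in H2-D1. The box of H2-K1 lay at -16, near the end of its window, and those of H2-D1 at -76 and -53. The windows end at different places relative to these matches, so a second box past that of H2-K1 could lie outside its window. B2m held an NF-κB match at -126, an interferon factor core at -137 and a CCAAT box at -53, and no TGACGC. H2-Q10 held the interferon factor core alone, and Tap1 held a CCAAT box alone. Over the 21 tested members with a promoter in the table, 8 held the NF-κB consensus, 12 the interferon factor core, 5 the X2 core and 15 a CCAAT box. Apart from B2m, all that held the NF-κB consensus were related H2 genes. The windows of Tap1 and Psmb9 overlap on opposite strands, and their CCAAT box is the same letters counted for both. Of all 32817 windows of the same length, 3.90%, 21.3%, 6.11% and 33.8% held them. All 4 were found in H2-K1, H2-D1 and H2-M3, and in 8 of the 32817 windows (0.024%). A match says only that the letters are there. The annotated start of H2-D1 in GENCODE lies 364 bases before that of RefSeq. The starts lay furthest apart for Tapbp, Psmb8 and Psmb9 (3579, 474 and 434 bases).

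Libraries held 5360724 to 6588363 counts with irisin and 5271309 to 6745799 with PBS. Levels are given in CPM, the count over the TMM-scaled library sum, as a value per library or as mean ± SD over the 3 libraries of a group, and 1 CPM stood on 5.17 to 6.89 counts. Fold changes are irisin over PBS on the log2 scale, ± standard error. Adjusted p-values are those of the quasi-likelihood test in edgeR, adjusted by Benjamini and Hochberg's method across the 12296 genes that passed the filter, with 0.05 as threshold. Stromal markers were abundant (10 of 10 tested, summed level 51219 to 56096 CPM with irisin and 37745 to 45284 CPM with PBS), and single markers moved both ways. Pdgfra and Col1a1 rose (log2 fold changes 0.60 and 0.49, adjusted p = 0.000620 and 0.0155), while Cd34, Thy1 and Lum fell (-1.40, -1.30 and -0.76, adjusted p = 1.2e-05, 0.00138 and 0.00659). Of 14 leukocyte markers 3 passed the filter and none was called by edgeR, and none had an unadjusted p under 0.05. Their summed level was 62.8 to 87.7 CPM with irisin and 66.6 to 82.3 CPM with PBS, most of it Csf1r, while Cd3e, Cd8a and Nkg7 had no count and Ptprc lay at or below 0.435 CPM in every library. Endothelial markers summed to 1.41 to 2.40 CPM with irisin and 0.736 to 1.90 CPM with PBS. Mesothelial markers summed to 38.6 to 49.96 CPM with irisin and 35.0 to 41.5 CPM with PBS, with none called, and mural markers to 37.1 to 58.4 CPM with irisin and 41.4 to 61.5 CPM with PBS, with 2 lower. Over all genes tested edgeR called 4.20% higher and 3.22% lower. Of 7 mature adipocyte markers Lep had no count and the 6 tested were all called lower. These markers summed to 146 to 201 CPM with irisin and 656 to 1098 CPM with PBS. Their part in the results below was not tested, and in bulk RNA a change in the share of cells of a type and a change in RNA per cell cannot be told apart.

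After 3 days with irisin 11 of the 27 tested members were higher and none was lower, where 7.42% of all genes tested were called, 4.20% higher and 3.22% lower. The 11 were the classical chain H2-K1, the light chain B2m, 4 Qa-region chains, H2-T-ps, the loading factor Tapbp, the immunoproteasome subunits Psmb8 and Psmb10 and the peptidase Erap1. The other 16 did not pass, among them H2-D1, both TAP subunits, Calr, Pdia3 and the transactivator Nlrc5. No member was called lower by edgeR, DESeq2 or limma-voom, and none had an unadjusted p under 0.05 in that direction, against 1096 of all genes. The median log2 fold change over the tested members was 0.52 (from -0.34 to 2.95), beside -0.01 over all genes tested, and 23 of the 27 were positive, beside 48.7% of all genes. H2-K2, with the lowest fold change, passed the low-count filter through its PBS libraries alone. H2-Q4, H2-Q6 and H2-T10 passed it through their irisin libraries alone, so their place among the tested members was tied to a high irisin level. Of the 23 members at the count minimum in all 6 libraries, 9 were called, all higher. In 17 of the 27 the 3 irisin values lay above the 3 PBS values, and in none below, where 23.6% of all genes did not overlap, 12.1% with irisin above and 11.5% with irisin below. Among the 17 were H2-Q4, H2-Q6 and H2-T10, which passed the filter through irisin alone. They also count in the median and among the members with a positive fold change.

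**Figure D1:**
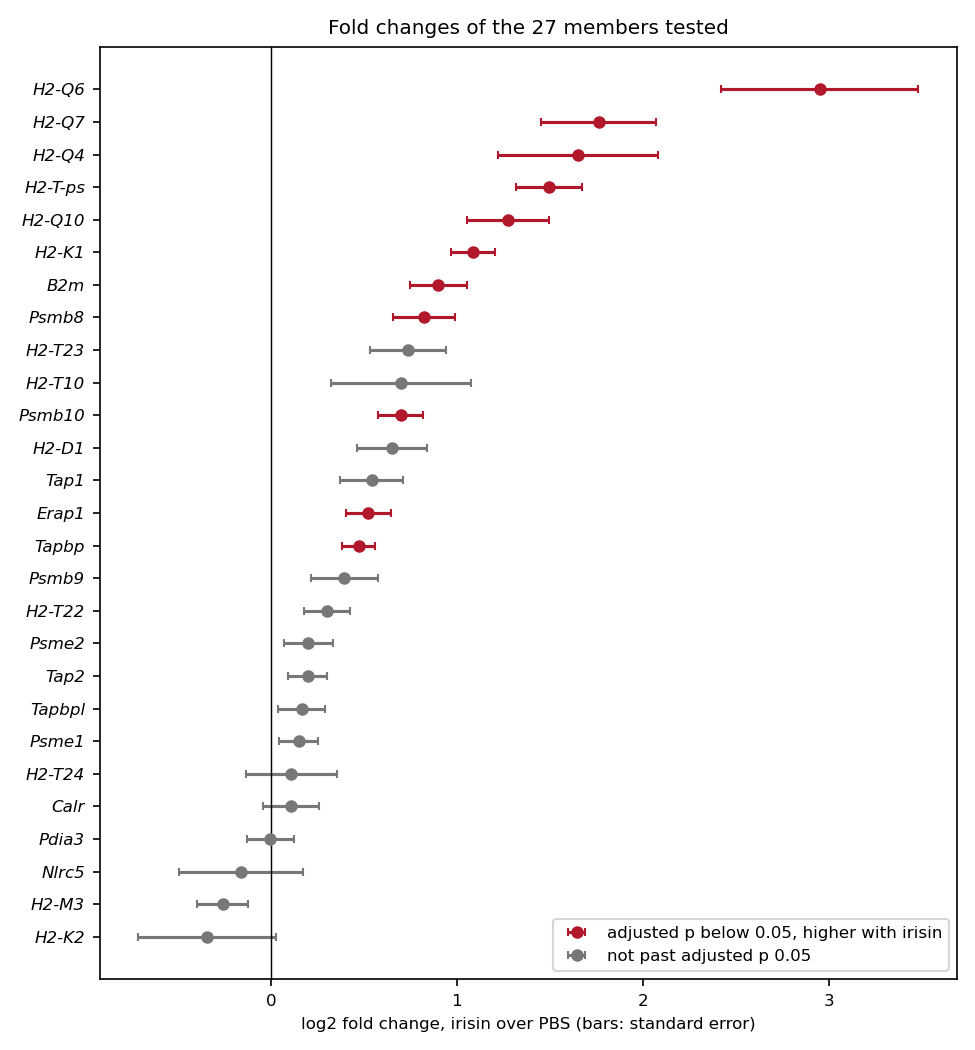
Log2 fold change of irisin over PBS (x axis) for the 27 members tested (rows), with bars of 1 standard error; red points passed adjusted p 0.05 and grey points did not. The points run from -0.34 for H2-K2 to 2.95 for H2-Q6, and all 11 that passed lie on the higher side.

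H2-K1, the classical K chain, had 791, 717 and 1025 CPM in irisin replicates 1, 2 and 3, against 410.1, 392 and 391 CPM in PBS replicates 1, 2 and 3. The PBS libraries were close together and all irisin libraries lay above them. H2-K1 was 2.12-fold higher (844 ± 161 CPM with irisin and 398 ± 10.95 CPM with PBS; log2 fold change 1.09 ± 0.12, adjusted p = 6.77e-05). H2-D1, the other classical chain, had 899, 641 and 973 CPM in irisin replicates 1, 2 and 3, against 492, 451 and 657 CPM in PBS replicates 1, 2 and 3. Irisin replicate 2 lay below PBS replicate 3, so the groups overlapped, and H2-D1 did not pass (log2 fold change 0.65 ± 0.19, adjusted p = 0.0886). Its call changed with the fit: it passed with DESeq2 (adjusted p = 0.00140), with limma-voom (0.00961), with no robust dispersion (0.0405), with no low-count filter (8.64e-08) and in edgeR without irisin replicate 2 (0.00861).

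B2m, the light chain that every class I heavy chain needs, had 1132, 852 and 1250.2 CPM in irisin replicates 1, 2 and 3, against 523, 524 and 687 CPM in PBS replicates 1, 2 and 3. The lowest irisin library was above the highest PBS library, and B2m rose 1.87-fold (1078 ± 205 CPM with irisin and 578 ± 94.3 CPM with PBS; log2 fold change 0.90 ± 0.15, adjusted p = 0.00539). In a further fit without PBS replicate 3 and irisin replicate 1, added once the data had been seen, the log2 fold changes of H2-K1 and B2m were 1.12 and 1.01, and adjusted p was 0.179 and 0.222. That fit has 2 libraries a group. In each fit that left out 1 library both genes passed. Per kilobase of exon, B2m was the most abundant class I chain, at 1253 ± 238 with irisin and 672 ± 109.6 with PBS CPM per kilobase. H2-D1 stood at 325 ± 67.5 with irisin and 207 ± 42.1 with PBS, and H2-K1 at 287 ± 54.8 with irisin and 135 ± 3.73 with PBS CPM per kilobase. Exon length here joins all annotated transcripts of a gene (860 bases for B2m, 2579 for H2-D1 and 2938 for H2-K1). It can exceed the length of 1 mRNA. H2-D1 and H2-K1 also share sequence with other genes, as given below, and B2m does not. The part of either in this ranking was not tested.

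The ratio of H2-K1 to H2-D1 counts within a library does not depend on how libraries are scaled. It was 0.880, 1.12 and 1.05 in irisin replicates 1, 2 and 3, against 0.834, 0.868 and 0.595 in PBS replicates 1, 2 and 3. The lowest irisin ratio was just above the highest PBS ratio, and the means were 1.02 ± 0.123 with irisin and 0.766 ± 0.149 with PBS (exact two-sided permutation test, p = 0.1, the smallest that 3 against 3 allows, and 0.117 when adjusted over 7 ratios). The ratio of H2-D1 to B2m was 0.794, 0.753 and 0.779 in irisin replicates 1, 2 and 3, against 0.940, 0.862 and 0.956 in PBS replicates 1, 2 and 3, lower in all irisin libraries (exact p = 0.1, adjusted 0.117). H2-K1 to B2m overlapped between the groups, with 0.699, 0.841 and 0.820 in irisin replicates 1, 2 and 3, against 0.783, 0.748 and 0.569 in PBS replicates 1, 2 and 3 (exact p = 0.4, adjusted 0.4).

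**Figure D2:**
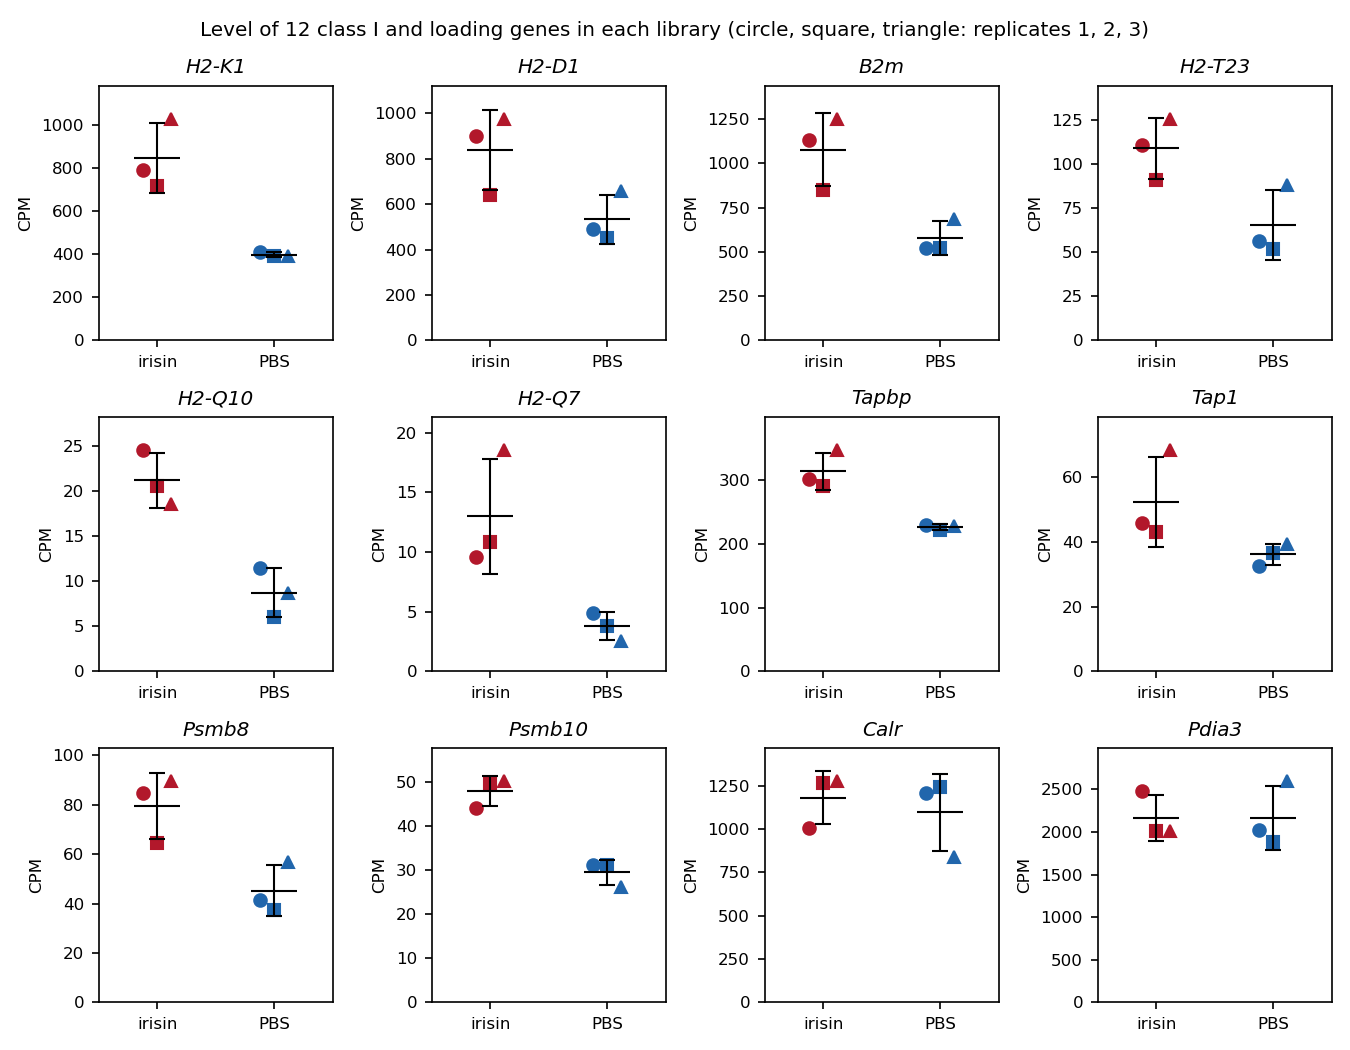
Level in CPM (y axes, from 0) of 12 members in each irisin library (red, left) and each PBS library (blue, right); circles, squares and triangles are replicates 1, 2 and 3, and black bars are mean ± SD over 3. H2-K1 and Tapbp are tight in PBS and higher in all irisin libraries, while Calr and Pdia3 overlap between the groups.

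The nonclassical Q chains, some of which are ligands of natural killer and T cell receptors, were low. Of 8 Q symbols 4 passed the filter and were called higher, but H2-Q4 and H2-Q6 passed it through their irisin libraries alone, so only H2-Q10 and H2-Q7 were tested free of that choice. H2-Q10, a secreted chain best known from liver, had 24.5, 20.5 and 18.5 CPM in irisin replicates 1, 2 and 3, against 11.5, 6.02 and 8.65 CPM in PBS replicates 1, 2 and 3. The groups were well apart, and H2-Q10 rose 2.42-fold (log2 fold change 1.27 ± 0.22, adjusted p = 0.00248). H2-Q7, a Qa-2 antigen gene, had 9.60, 10.8 and 18.5 CPM in irisin replicates 1, 2 and 3, against 4.93, 3.80 and 2.58 CPM in PBS replicates 1, 2 and 3. It rose 3.39-fold with irisin replicate 3 highest (log2 fold change 1.76 ± 0.31, adjusted p = 0.00288). H2-Q6, another Qa-2 gene, had 9.44, 4.45 and 16.2 CPM in irisin replicates 1, 2 and 3, against 0.726, 1.27 and 2.03 CPM in PBS replicates 1, 2 and 3. It was called at 7.72-fold (log2 fold change 2.95 ± 0.53, adjusted p = 0.00693), on 5 to 11 counts in PBS libraries, and its call was lost without PBS replicate 2 (adjusted p = 0.0559) and without both PBS replicate 3 and irisin replicate 1 (0.109). H2-Q4 had 2.08, 2.90 and 4.71 CPM in irisin replicates 1, 2 and 3, against 0.871, 1.11 and 1.10 CPM in PBS replicates 1, 2 and 3. It passed (log2 fold change 1.65 ± 0.43, adjusted p = 0.0351) but not with DESeq2 (0.0648) or without irisin replicate 2 (0.0857), irisin replicate 3 (0.202), PBS replicate 1 (0.142) or PBS replicate 2 (0.0975).

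Among 5 T-region genes tested, 1 rose, beside 4.20% of all genes tested. H2-T-ps, which GENCODE annotates as an unprocessed pseudogene, had 21.8, 18.0 and 20.0 CPM in irisin replicates 1, 2 and 3, against 7.11, 7.92 and 6.08 CPM in PBS replicates 1, 2 and 3. Its groups did not come near each other, and it rose 2.82-fold (log2 fold change 1.49 ± 0.18, adjusted p = 0.000114). H2-T23, the Qa-1 chain that presents signal peptides of other class I chains to NKG2A receptors, had 110.4, 90.6 and 125 CPM in irisin replicates 1, 2 and 3, against 56.3, 52.0 and 88.2 CPM in PBS replicates 1, 2 and 3. Irisin replicate 2 was only just above PBS replicate 3, and H2-T23 did not pass (log2 fold change 0.74 ± 0.21, adjusted p = 0.0725). It passed without PBS replicate 3 (adjusted p = 3.68e-05), with DESeq2 (0.00178), with limma-voom (0.00231), with no robust dispersion (0.0400) with no low-count filter (2.89e-08) and without both PBS replicate 3 and irisin replicate 1 (0.000390). H2-T22, a ligand of γδ T cells, averaged 59.8 ± 9.72 CPM with irisin and 48.6 ± 1.16 CPM with PBS and did not pass (log2 fold change 0.30 ± 0.12, adjusted p = 0.210), nor did H2-T10 (log2 fold change 0.70 ± 0.37, adjusted p = 0.364) or H2-T24 (log2 fold change 0.11 ± 0.24, adjusted p = 0.888). H2-M3, which presents formylated peptides of bacteria and mitochondria, averaged 38.2 ± 4.81 CPM with irisin and 45.8 ± 6.49 CPM with PBS and did not pass (log2 fold change -0.26 ± 0.14, adjusted p = 0.364). H2-K2 did not pass either (log2 fold change -0.34 ± 0.37, adjusted p = 0.728).

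Reads of these genes can be divided between near-identical copies. Of the 50-base windows in the annotated transcripts of a gene, the share also found in a transcript of another gene was 0% for B2m and Psmb10, 9.63% for H2-K1, 12.8% for H2-D1, 14.5% for H2-T23 and 19.1% for H2-Q10. It was 26.4% for H2-Q7, 29.4% for H2-T-ps, 35.0% for H2-Q6, 36.4% for H2-Q4, 50.4% for H2-T10 and 53.5% for H2-T22. With 25-base windows the share stayed at 0% for B2m and Psmb10. It rose to 30.48% for H2-T23, 31.7% for H2-K1, 36.31% for H2-D1, 37.43% for H2-Q10 and 46.62% for H2-Q7. For H2-T-ps, H2-Q6, H2-Q4, H2-T10 and H2-T22 it was 56.38%, 59.97%, 60.33%, 68.89% and 72.03%. For H2-T-ps the gene with most shared 50-base windows was H2-T23 (17.98% of its windows), for H2-T22 it was H2-T10 (31.25%), and for H2-Q6 it was H2-Q7 (13.95%). With 25-base windows H2-Q6 shared most with H2-Q4 (30.57%). Neither read length nor the rule for reads matching several genes is stated, and how far counts were exchanged was not tested. A sum over the 31 H2 symbols other than H2-Ke6 is less open to such exchange. It was 1976, 1612 and 2331 CPM in irisin replicates 1, 2 and 3, against 1090.5, 1016 and 1273 CPM in PBS replicates 1, 2 and 3, and H2-K1 and H2-D1 made up 84.2% to 85.7% of it with irisin and 82.3% to 82.9% with PBS.

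**Figure D3:**
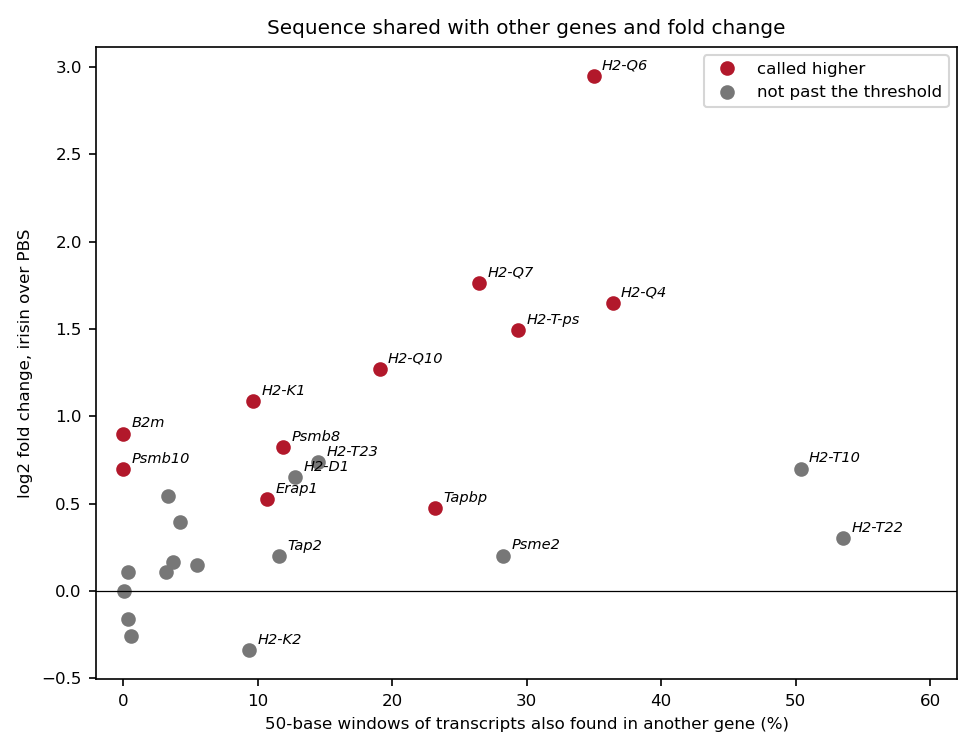
Share of 50-base transcript windows also present in another gene (x axis, %) and log2 fold change of irisin over PBS (y axis) for the 27 members tested; red points passed adjusted p 0.05. B2m and Psmb10 were called with no shared window, and H2-T10 and H2-T22, with 50.4% and 53.5% shared, were not called. The largest log2 fold changes, 2.95 for H2-Q6, 1.76 for H2-Q7 and 1.65 for H2-Q4, came with 35.0%, 26.45% and 36.4% shared. These genes were called, and the part of shared sequence in the calls was not tested.

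The immunoproteasome subunits replace the standard catalytic subunits and favour peptides that suit class I. Psmb8 had 85.0, 64.4 and 89.6 CPM in irisin replicates 1, 2 and 3, against 41.5, 37.4 and 56.9 CPM in PBS replicates 1, 2 and 3. It rose 1.77-fold and the groups did not overlap (log2 fold change 0.82 ± 0.17, adjusted p = 0.0102), though the call was lost without irisin replicate 3 (adjusted p = 0.0523) or PBS replicate 1 (0.0558). Psmb10 had 44.0, 49.7 and 50.1 CPM in irisin replicates 1, 2 and 3, against 31.2, 31.1 and 26.1 CPM in PBS replicates 1, 2 and 3, with both groups tight. It rose 1.62-fold (log2 fold change 0.70 ± 0.12, adjusted p = 0.00263). Psmb9, the third subunit, averaged 12.7 ± 0.764 CPM with irisin and 9.67 ± 1.33 CPM with PBS and did not pass (log2 fold change 0.40 ± 0.18, adjusted p = 0.269). Psme1 and Psme2, the subunits of the PA28 activator, did not pass (log2 fold change 0.15 ± 0.11, adjusted p = 0.532, and log2 fold change 0.20 ± 0.13, adjusted p = 0.484). Psme2 passed as higher without PBS replicate 3 (adjusted p = 0.0104).

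Of 21 genes of the standard proteasome core, its assembly factors and other activators, edgeR called none higher and none lower, beside 7.42% of all genes tested. None among 21 is not far from that share, and DESeq2 and limma-voom called none of them. At an unadjusted p under 0.05 there was 1 lower gene and no higher one, and their median log2 fold change was -0.09. Set against its standard counterpart within each library, the count ratio of Psmb8 to Psmb5 was 0.631, 0.468 and 0.726 in irisin replicates 1, 2 and 3, against 0.323, 0.277 and 0.405 in PBS replicates 1, 2 and 3. For Psmb10 to Psmb7 it was 0.661, 0.745 and 0.715 in irisin replicates 1, 2 and 3, against 0.485, 0.421 and 0.332 in PBS replicates 1, 2 and 3. For Psmb9 to Psmb6 it was 0.0507, 0.0581 and 0.0558 in irisin replicates 1, 2 and 3, against 0.0428, 0.0349 and 0.0425 in PBS replicates 1, 2 and 3. In all 3 pairs each irisin library had a higher ratio than each PBS library (exact two-sided permutation test, p = 0.1 for each, the smallest possible, and 0.117 adjusted over 7 ratios). Psmb9 counts were a small part of those of Psmb6 in both groups, whereas Psmb8 and Psmb10 reached means of 0.609 and 0.707 of their counterparts with irisin and 0.335 and 0.413 with PBS. These are ratios of counts, and the exon lengths of the genes differ.

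**Figure D4:**
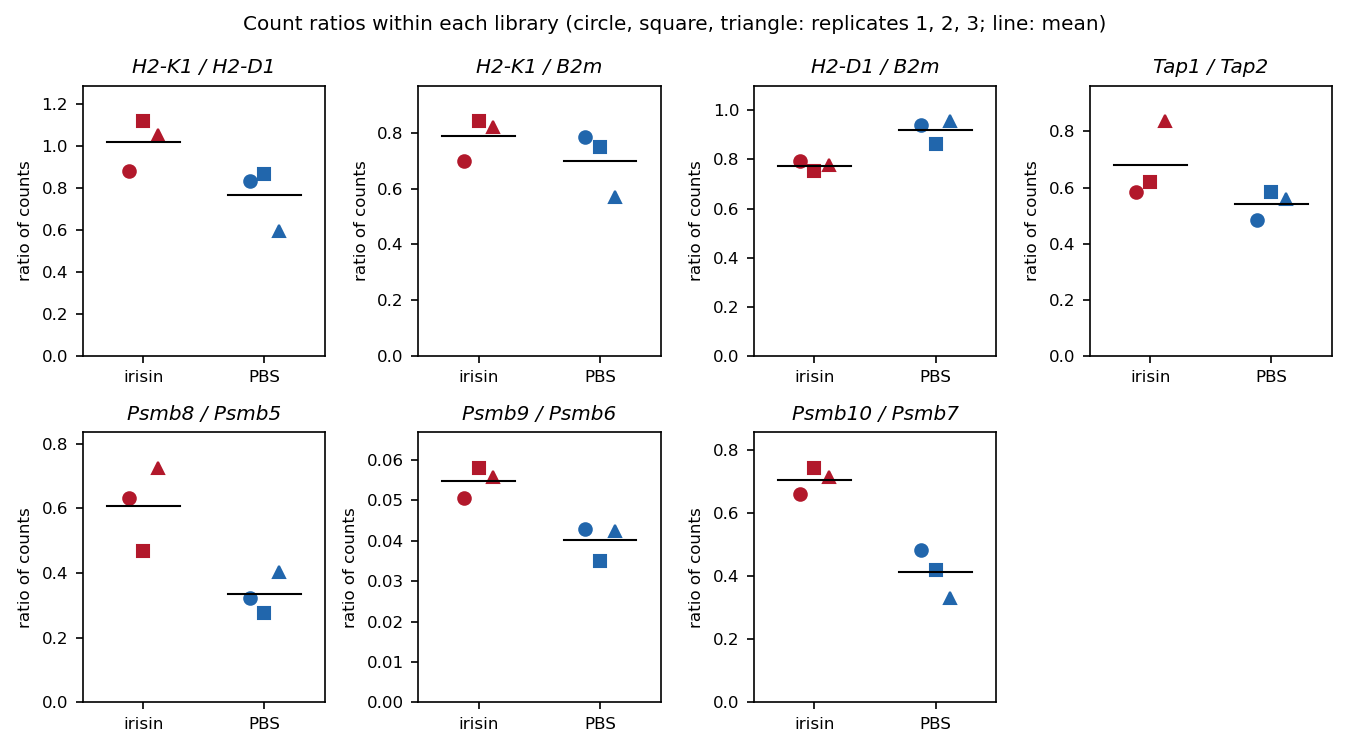
Ratio of the counts of 2 genes within each library (y axes, from 0) for irisin (red, left) and PBS (blue, right); circles, squares and triangles are replicates 1, 2 and 3, and lines are group means over 3. The 3 immunoproteasome ratios are higher in every irisin library than in any PBS library, and H2-K1 to B2m overlaps.

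Of 6 genes of peptide transport and loading, 1 rose and none fell, beside 4.20% higher and 3.22% lower over all genes tested. Tapbp encodes tapasin, which bridges TAP and the empty class I chain, and had 302, 291 and 347 CPM in irisin replicates 1, 2 and 3, against 229, 221 and 227 CPM in PBS replicates 1, 2 and 3. PBS libraries were close together and below all irisin libraries, and Tapbp rose 1.39-fold (log2 fold change 0.47 ± 0.09, adjusted p = 0.00426). Erap1, the aminopeptidase that trims peptides in the endoplasmic reticulum, had 76.3, 68.0 and 79.97 CPM in irisin replicates 1, 2 and 3, against 47.7, 48.5 and 60.2 CPM in PBS replicates 1, 2 and 3. It rose 1.44-fold (log2 fold change 0.52 ± 0.12, adjusted p = 0.0161), a call lost without irisin replicate 1 (adjusted p = 0.0510), irisin replicate 3 (0.0959), PBS replicate 1 (0.0950) or PBS replicate 2 (0.0827). Tap1, a subunit of the transporter, had 45.8, 42.9 and 68.2 CPM in irisin replicates 1, 2 and 3, against 32.5, 36.4 and 39.2 CPM in PBS replicates 1, 2 and 3. Its groups did not overlap, but the spread with irisin was wide and it did not pass (log2 fold change 0.54 ± 0.17, adjusted p = 0.0810), except with no low-count filter (adjusted p = 0.00327). Tap2, the partner subunit, averaged 76.4 ± 6.29 CPM with irisin and 66.7 ± 3.82 CPM with PBS (log2 fold change 0.20 ± 0.10, adjusted p = 0.352), and the count ratio of Tap1 to Tap2 was 0.585, 0.618 and 0.836 in irisin replicates 1, 2 and 3, against 0.483, 0.582 and 0.559 in PBS replicates 1, 2 and 3 (exact p = 0.1, adjusted 0.117). Tapbpl, the tapasin relative TAPBPR that edits bound peptides, did not pass (log2 fold change 0.17 ± 0.13, adjusted p = 0.581).

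Calr, the chaperone calreticulin, had 1005, 1263 and 1276 CPM in irisin replicates 1, 2 and 3, against 1205, 1243 and 839 CPM in PBS replicates 1, 2 and 3. Pdia3, the thiol oxidoreductase ERp57 of the loading complex, had 2479, 2008 and 2007 CPM in irisin replicates 1, 2 and 3, against 2022, 1887 and 2595 CPM in PBS replicates 1, 2 and 3. Both are general folding factors, both overlapped between the groups, and neither passed (log2 fold change 0.11 ± 0.15, adjusted p = 0.809, and log2 fold change -0.00 ± 0.13, adjusted p = 0.998). In Calr irisin replicate 1 and PBS replicate 3 were the low libraries, and in Pdia3 the same libraries were the high ones. Of 15 other folding and translocation genes of the endoplasmic reticulum, edgeR, DESeq2 and limma-voom called none, 1 was higher at an unadjusted p under 0.05, and their median log2 fold change was 0.02. Among 9 other peptidases known to trim or destroy peptides, only Npepps, a cytosolic aminopeptidase, passed as higher (log2 fold change 0.50 ± 0.11, adjusted p = 0.0110), and not without irisin replicate 2. Over all genes tested edgeR called 7.42%, and the counts for the folding genes and the peptidases are not far from that share.

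Nlrc5 was low and did not pass, with 5.44, 3.29 and 10.21 CPM in irisin replicates 1, 2 and 3, against 6.24, 7.61 and 7.73 CPM in PBS replicates 1, 2 and 3. Irisin replicates 2 and 3 were the lowest and the highest of all 6 libraries (log2 fold change -0.16 ± 0.34, adjusted p = 0.881). Over all genes tested edgeR called 4.20% higher and 3.22% lower. Of 23 tested receptors, kinases and transcription factors that act on class I genes, 8 rose and none fell, whether by edgeR, DESeq2 or limma-voom, and none had an unadjusted p under 0.05 downward. The lowest p-values were those of Ifnar2, an interferon α/β receptor subunit (315 ± 10.9 CPM with irisin and 131 ± 9.38 CPM with PBS; log2 fold change 1.27 ± 0.09, adjusted p = 8.86e-07), and the NF-κB subunit genes Nfkb2 (log2 fold change 0.95 ± 0.11, adjusted p = 0.000121) and Relb (log2 fold change 1.31 ± 0.16, adjusted p = 0.000226). Ifnar1, the partner receptor subunit, rose as well (log2 fold change 0.70 ± 0.09, adjusted p = 0.000244). The other 4, named after their values were seen, were Jak2, Ifngr2, Nfkb1 and Irf1, of which Irf1, an interferon-induced activator of class I promoters, had the smallest margin (log2 fold change 0.59 ± 0.16, adjusted p = 0.0398). Counts of higher genes in this list were 6 to 9 with 1 library left out. The list was chosen with earlier results of these data known, so its share of calls is no test of such genes.

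Part of the spread within groups was shared between members. PBS replicate 3 was the highest PBS library and irisin replicate 2 the lowest irisin library in 12 of the 27 tested members (44.4%), beside 16.6% of all genes tested. This order was picked out after the values were seen. The 12 included B2m, H2-D1, H2-T23, H2-Q6, Psmb8, Erap1 and Tap1, but not H2-K1, Tapbp or Psmb10. In the same way 22 of 25 tested interferon-stimulated genes (88.0%) had this order. Their summed level over 31 genes was 853, 621 and 1456 CPM in irisin replicates 1, 2 and 3, against 441, 400.1 and 782 CPM in PBS replicates 1, 2 and 3, so that irisin replicate 2 lay below PBS replicate 3 as it did in H2-D1. Of these 25 genes 1, Gbp2, passed with edgeR (log2 fold change 0.91 ± 0.13, adjusted p = 0.000580), 3 with DESeq2, 9 with limma-voom and 6 in edgeR without PBS replicate 3. Over all genes tested edgeR called 4.20% higher. The median log2 fold change of the 25 was 0.91, and 100% of them were positive, beside 48.7% of all genes tested. At an unadjusted p under 0.05 by edgeR 8 were higher and 0 lower, beside 1140 and 1096 of all 12296 genes. What this shared order has to do with the changes in class I genes was not tested. The libraries that stood apart in the second principal component over all genes (23.9% of variance) were PBS replicate 3 and irisin replicate 1.

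**Figure D5:**
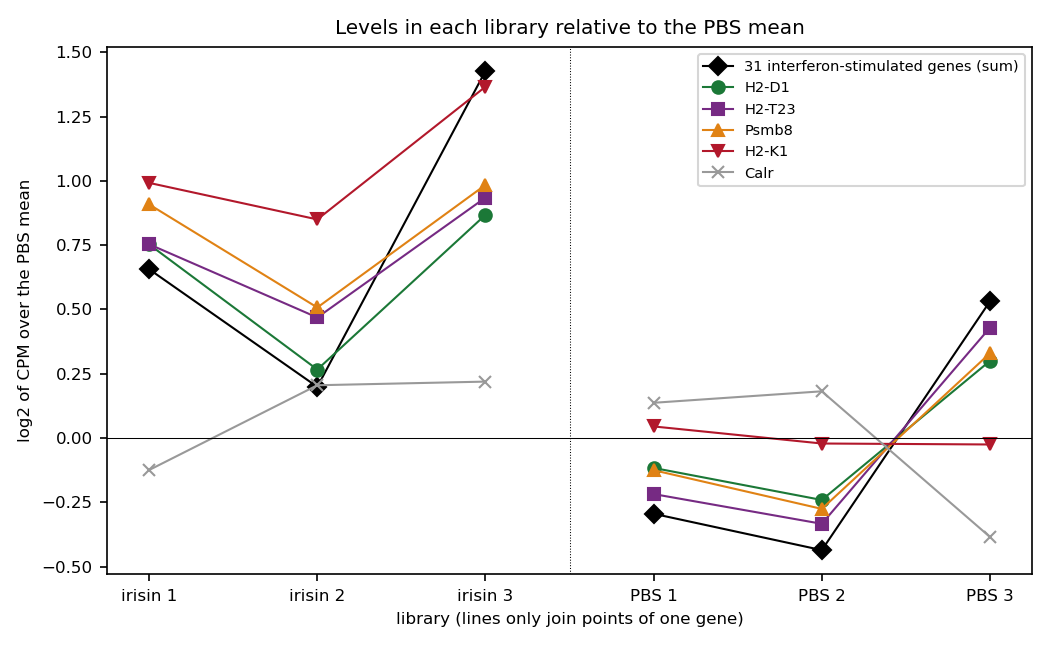
Level in each library (x axis) as log2 of CPM over the PBS mean (y axis) for H2-K1, H2-D1, H2-T23, Psmb8, Calr and the sum of 31 interferon-stimulated genes; lines only join points of a gene within a group. H2-D1, H2-T23 and Psmb8 share with the interferon sum a high PBS replicate 3 and a low irisin replicate 2, while H2-K1 is level across PBS.

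None of the 4 class II genes and 7 class I-like genes tested was called higher by edgeR. Over all genes tested 4.20% were called higher and 3.22% lower, and with so few genes none higher is near that share. Most class II genes, H2-Ab1 among them, fell below the low-count filter, and with no such filter 1 class II gene was called higher. Of 13 genes of MHC class II presentation 4 passed the filter, and edgeR, DESeq2 and limma-voom called none of them, with 1 higher at an unadjusted p under 0.05. The 4 were Ifi30 (log2 fold change 0.38 ± 0.17, adjusted p = 0.259), H2-DMb1 (log2 fold change 0.44 ± 0.33, adjusted p = 0.571), H2-Eb1 (log2 fold change -0.18 ± 0.33, adjusted p = 0.860) and H2-DMa (log2 fold change 0.03 ± 0.32, adjusted p = 0.977). Of 7 tested class I-like molecules and stress ligands none rose and 1 fell. That was Cd1d1, which presents lipids to natural killer T cells and had 33.0, 24.7 and 29.2 CPM in irisin replicates 1, 2 and 3, against 53.6, 51.5 and 45.7 CPM in PBS replicates 1, 2 and 3. Its groups did not overlap (log2 fold change -0.79 ± 0.13, adjusted p = 0.00178). Ulbp1, Fcgrt and Hfe, a stress ligand, the neonatal Fc receptor and an iron regulator, had log2 fold changes of -0.32 ± 0.13, -0.13 ± 0.08 and -0.14 ± 0.12 and did not pass. At an unadjusted p under 0.05 this list held no higher gene, and DESeq2 and limma-voom called none higher.

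Positions are those of GRCm38 (mm10) in GENCODE release M21, in which all 46 symbols were found, 37 of them on chromosome 17. Tapbp (chromosome 17 from 33915899 to 33929292), H2-K1 (33996017 to 34000347), Psmb9 (34181987 to 34187764), Tap1 (34187553 to 34197225), Psmb8 (34197721 to 34201454) and Tap2 (34203527 to 34216321) lie close together there, with H2-D1 (35262730 to 35267499), H2-Q10 (35470089 to 35474563) and H2-T23 (36029773 to 36032855) further along. B2m lies on chromosome 2 from 122147686 to 122153083, Erap1 on chromosome 13 from 74639568 to 74693201, Psmb10 on chromosome 8 from 105935735 to 105938444 and Calr on chromosome 8 from 84841850 to 84846934. All 13 carry a protein-coding annotation. Counts cover whole genes and do not tell untranslated from coding exons. Exons on the opposite strand overlap Erap1 (834 bases, Cast), Psmb8 (498, Gm20496), Tapbp (904, Gm19412), Tap1 and Psmb9 (212, each other) and Tap2 (698). They also overlap H2-Q4 (496, Gm11131), H2-T10 (925, BC023719) and H2-T22 (1003, A930015D03Rik), and at most 78 bases of Nlrc5, Pdia3, Psme1 and H2-T-ps. Tapbp also shares 149 bases with Zbtb22 on its own strand. No source used here gives the strand setting of the counting, and these values are uncertain to that extent.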

How the data were processed

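One table deposited by the authors holds raw counts for 6 libraries, by gene symbol and without normalization. Per the labels' protocols, cultured cells were lysed in a 96-well plate, and libraries were made by ImmGen's ultra-low-input procedure. STAR 2.7.3a, featureCounts and mm10 are named per the submitters' processing notes, while annotation, strand setting and multi-mapping rule are not stated. Sample titles gave groups and replicate numbers.

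From the deposited counts, edgeR 4.0.16 (R 4.3.3) kept 12296 of 31436 genes with any count by filterByExpr at a count minimum of 10, scaled by TMM, and compared irisin with PBS in all 6 libraries by its quasi-likelihood test with robust dispersion and no covariate. The standard error of a log2 fold change is its size over the root of F. The common biological coefficient of variation was 0.121. For CPM, a count was divided by its library's sum over tested genes after TMM scaling. Alternatives were other scalings, DESeq2 1.42.0, limma-voom (limma 3.58.1) and those given at the end. The steps were tested on simulated data. Ratios of counts were compared by exact permutation tests.

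The members, the pathway and marker lists, the ratios and the motifs were chosen with earlier results of these data known. Every tested member is given; values per library are printed for called members and those with a mean of at least 100 CPM, with H2-T23, Tap1 and Nlrc5 added after their values were seen. Lists are named by their lowest p-values. Same-numbered libraries did not deviate together over all genes (r = -0.238, 0.164 and -0.177), so the numbers were not taken as pairs, though the labels do not settle this. Promoters are RefSeq's on GRCm38.p6. Windows shared between genes were counted over GENCODE M21 transcripts, both strands. Libraries of a group differed by more than counting noise (chi-square per degree of freedom 2.74 to 14.8), so none was treated as a repeated deposit of another; this does not show that they are independent samples.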

Additional observations from a re-analysis of the deposited data

How the results depend on the processing

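H2-Q10, H2-Q7, H2-T-ps, Psmb10 and Tapbp were called as higher in all 16 alternatives, and H2-K1 and B2m in all but the fit without PBS replicate 3 and irisin replicate 1, which was chosen after the data were seen. The 11 members called were the same with RLE, upper quartile or total-count scaling, although with total counts the median over all genes was -0.09 in place of -0.01 (log2). With 1 library left out 8 to 13 members were called higher, all genes numbered 336 to 705 higher and 238 to 585 lower, interferon-stimulated genes 1 to 6 higher, other peptidases 0 to 1 higher and 0 to 1 lower, and other folding factors 0 to 1 higher. The replicate block treats same-numbered libraries as pairs, which the labels neither state nor exclude. In edgeR it gave 12 members, with H2-D1 (adjusted p = 0.00483) and H2-T23 (0.00454) gained and H2-Q4 (0.0593) lost. Calls over all genes were 691 against 912, and those of interferon-stimulated genes 14 against 1. Over all genes only irisin replicate 2 correlated best with its own number, although the summed interferon-stimulated genes and H2-D1 ran in the same number order in both groups (replicate 2 lowest, then 1, then 3).

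With total counts 602 genes were lower, 41.2% of calls were higher against 56.6%, and 1 standard proteasome gene was lower. The interferon-stimulated genes called higher numbered 3 with DESeq2, 9 with limma-voom, 7 with no low-count filter and 2 at adjusted p 0.10. With no low-count filter 1 class II gene was higher and 1 other peptidase lower. Without both PBS replicate 3 and irisin replicate 1, 892 genes were higher and 788 lower, H2-T22 (0.0174) and Psme2 (0.00353) passed, and calls were 5 interferon-stimulated genes higher, 2 class I-like genes lower, 1 standard proteasome gene higher and 1 lower, 2 folding factors higher and 1 lower, and 1 other peptidase lower. The sign of the log2 fold change of Pdia3 turned with upper quartile factors (1.57e-05), limma-voom (0.0419), a count minimum of 50 (0.00456), the replicate block (0.00500) and without both libraries (0.0417). With 1 library left out it was -0.11 to 0.15 for Pdia3, -0.69 to 0.13 for Nlrc5, -0.042 to 0.38 for H2-T24 and -0.048 to 0.21 for Calr, and for Nlrc5 0.014 without both. None of these 4 was called in any fit, and the causes were not tested. A count minimum of 50 left H2-Q4, H2-Q6, H2-K2, H2-T10, H2-T24 and Nlrc5 untested.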

Other observations

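Of the 19 members that were not tested, 10 had no count in any library and the other 9 had at most 10 counts in a library. H2-Q5, a polymorphic pseudogene in the annotation, had 10, 0 and 10 counts in irisin replicates 1, 2 and 3, against 0, 3 and 3 in PBS replicates 1, 2 and 3. H2-M2 had 1, 7 and 5 counts with irisin, against 2, 1 and 0 with PBS. Among untested class II genes, H2-Ab1, a classical class II β chain, lay at 3.52, 1.55 and 1.10 CPM with irisin, against 0.581, 0.317 and 0.552 CPM with PBS, on a few counts per library. These genes fell below the low-count filter and were named after their values were seen. With no low-count filter none of the 9 members was called, and 1 class II gene was.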
